A study of Homo sapiens with 12 samples.

Results

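The genes described here are *CGAS*, *STING1*, *IFI16*, *TREX1*, *SAMHD1*, *ISG20*, *ZC3HAV1* and *BST2*, a set of 8 of the 45416 genes in the deposited table. They were chosen by name for their roles in sensing DNA inside the cell and in degrading or restricting foreign nucleic acid. These genes and the lists below were chosen with earlier results of these data known, so the counts are not independent of those results. Of the 8 genes, 7 passed the filter on low reads. *CGAS* did not pass. The values come from RNA-seq of U251, an established human glioblastoma cell line, in 12 libraries, 2 for each of 6 groups. The groups cross 3 transfections with 2 treatments. Cells received a control siRNA (siNC, genotype given as WT) or 1 of 2 siRNAs against *PD-L1* (siPDL1-1 and siPDL1-2, genotype given as PD-L1 knockdown), and 48 h later were left unstimulated or were given IFNγ at 100 U/ml for 24 h. All groups, controls included, carried a transfected siRNA, all came from 1 cell line, and a knockdown lowers a transcript without deleting its gene.

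Cytosolic DNA is bound by cGAS, which makes a cyclic dinucleotide that activates STING, an adaptor of the endoplasmic reticulum membrane that leads to type I interferon. TREX1 degrades cytosolic DNA before it can be sensed, and SAMHD1 hydrolyses the deoxynucleotides that reverse transcription and DNA synthesis need. IFI16, ISG20, ZC3HAV1 and BST2 act on the nucleic acids or particles of viruses, and many genes of this kind are switched on by interferons through STAT proteins that bind short DNA motifs in promoters.

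The promoters of the called genes are shown because the results below turn on their response to interferon. RefSeq promoter windows (GRCh38.p14) of 250 bases before to 50 bases after the annotated start were found for 6 of the 8 genes, with 2 windows for *IFI16*. Both strands were searched for an ISRE-like motif, GAAA and again GAAA with 2 bases of any kind between them, and for a GAS-like motif, TTCNNNGAA, where N is any base. Of 35116 promoter windows, 3.57% hold the first motif and 7.66% the second. Capitals mark the matches in the 3 windows that hold at least 1, each written 5′ to 3′ on the strand of the gene. They are *BST2* (chr19:17405581-17405880, minus strand), *ISG20* (chr15:88638766-88639065, plus strand) and *ZC3HAV1* (chr7:139109671-139109970, minus strand).
BST2: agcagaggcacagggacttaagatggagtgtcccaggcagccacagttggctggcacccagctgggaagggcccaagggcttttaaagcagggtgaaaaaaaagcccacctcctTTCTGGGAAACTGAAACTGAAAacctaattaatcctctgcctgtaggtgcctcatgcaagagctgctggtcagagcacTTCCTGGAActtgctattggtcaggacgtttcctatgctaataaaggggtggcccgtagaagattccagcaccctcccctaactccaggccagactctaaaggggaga
ISG20: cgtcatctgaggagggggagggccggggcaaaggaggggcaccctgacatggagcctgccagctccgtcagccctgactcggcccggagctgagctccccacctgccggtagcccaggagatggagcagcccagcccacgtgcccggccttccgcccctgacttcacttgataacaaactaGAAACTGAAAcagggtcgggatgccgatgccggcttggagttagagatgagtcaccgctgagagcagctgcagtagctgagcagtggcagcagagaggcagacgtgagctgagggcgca
ZC3HAV1: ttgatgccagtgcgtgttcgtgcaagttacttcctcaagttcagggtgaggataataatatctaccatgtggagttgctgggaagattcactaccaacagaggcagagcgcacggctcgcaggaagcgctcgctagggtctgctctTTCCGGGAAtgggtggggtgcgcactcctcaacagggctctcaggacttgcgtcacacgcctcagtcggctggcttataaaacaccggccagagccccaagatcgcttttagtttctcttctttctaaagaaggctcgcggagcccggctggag

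The *BST2* window holds 2 ISRE-like matches that overlap each other, starting 130 and 124 bases before the start. It also holds 2 GAS-like matches, starting 136 and 58 bases before the start, and the first of these runs into the first ISRE-like match. The *ISG20* window holds 1 ISRE-like match, 69 bases before the start, with the same 10 letters as each of the 2 in *BST2*. The *ZC3HAV1* window holds 1 GAS-like match, 104 bases before the start. The windows of *IFI16*, *TREX1* and *SAMHD1* hold neither set of letters, which says nothing of other sites or other parts of these genes. The *ISG20* window and the 2 *IFI16* windows lie inside the gene spans printed below. Starts of these genes that lie further upstream were therefore not searched.

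**Figure D1:**
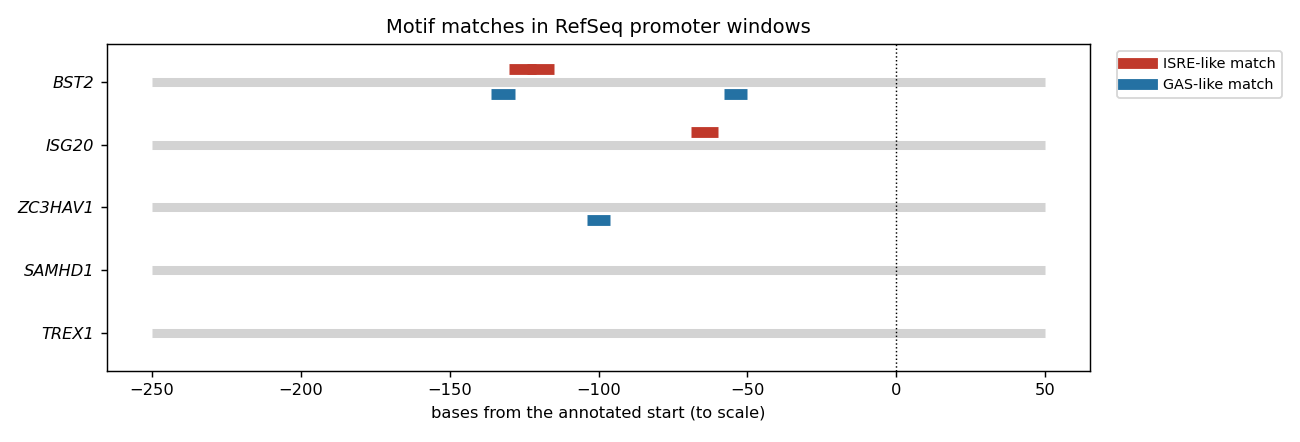
Position of ISRE-like (red, above the bar) and GAS-like (blue, below the bar) matches in the promoter windows of 5 genes with 1 window each, in bases from the annotated start (dotted line). *BST2* holds matches of both kinds, *ISG20* and *ZC3HAV1* 1 match each, and *SAMHD1* and *TREX1* none.

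Library depth was between 17101069 and 55657393 reads on genes. *CD274*, which encodes PD-L1, was at 4.60 and 4.91 CPM (reads of a gene scaled to library size, as normalized by the authors) in unstimulated siNC cells, 2.67 and 2.73 with siPDL1-1 and 3.57 and 3.45 with siPDL1-2. After IFNγ it was at 71.2 and 76.0 CPM with siNC, 60.9 and 66.7 with siPDL1-1 and 37.5 and 35.0 with siPDL1-2. *CD274* was thus lower in every knockdown library than in either siNC library of the same treatment, but after IFNγ the siPDL1-1 difference did not pass limma (log2 fold change -0.20, FDR = 0.0604), while that of siPDL1-2 did (95% interval of the log2 fold change -1.16 to -0.84, FDR = 2.79e-05). Of the glial and glioma markers, 8 of 10 were at 1 CPM or more, led by *VIM*. Of the leukocyte markers, 3 of 12 reached that level and *MS4A1* was at 0 in all libraries. Their summed level was 103 to 107 CPM in IFNγ-treated siPDL1-1 libraries and 72.7 to 93.3 in the others, and *CD68*, a lysosomal protein made by many cell types, was the highest of them. Of the endothelial and fibroblast markers, 3 of 7 reached 1 CPM. The part of these markers in the results below was not tested. In bulk RNA, a change in the share of cells that express a gene and a change in its RNA per cell cannot be told apart.

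*CGAS* was not detectable above the counting floor in any group, *STING1* changed by less than 1.5-fold in each comparison, and the other 6 genes rose with IFNγ under all 3 siRNAs. After IFNγ these 6 were higher with siPDL1-1 than with siNC, by 1.58-fold (*IFI16*) to 3.35-fold (*ISG20*). With siPDL1-2 against siNC, 0 of the 7 tested genes were called in either state. Of all genes, 6.17% were called in that comparison in unstimulated cells and 2.91% after IFNγ. A count of 0 among 7 therefore does not set these genes apart. A gene was called at an FDR under 0.01 and a fold change over 1.5.

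**Figure D2:**
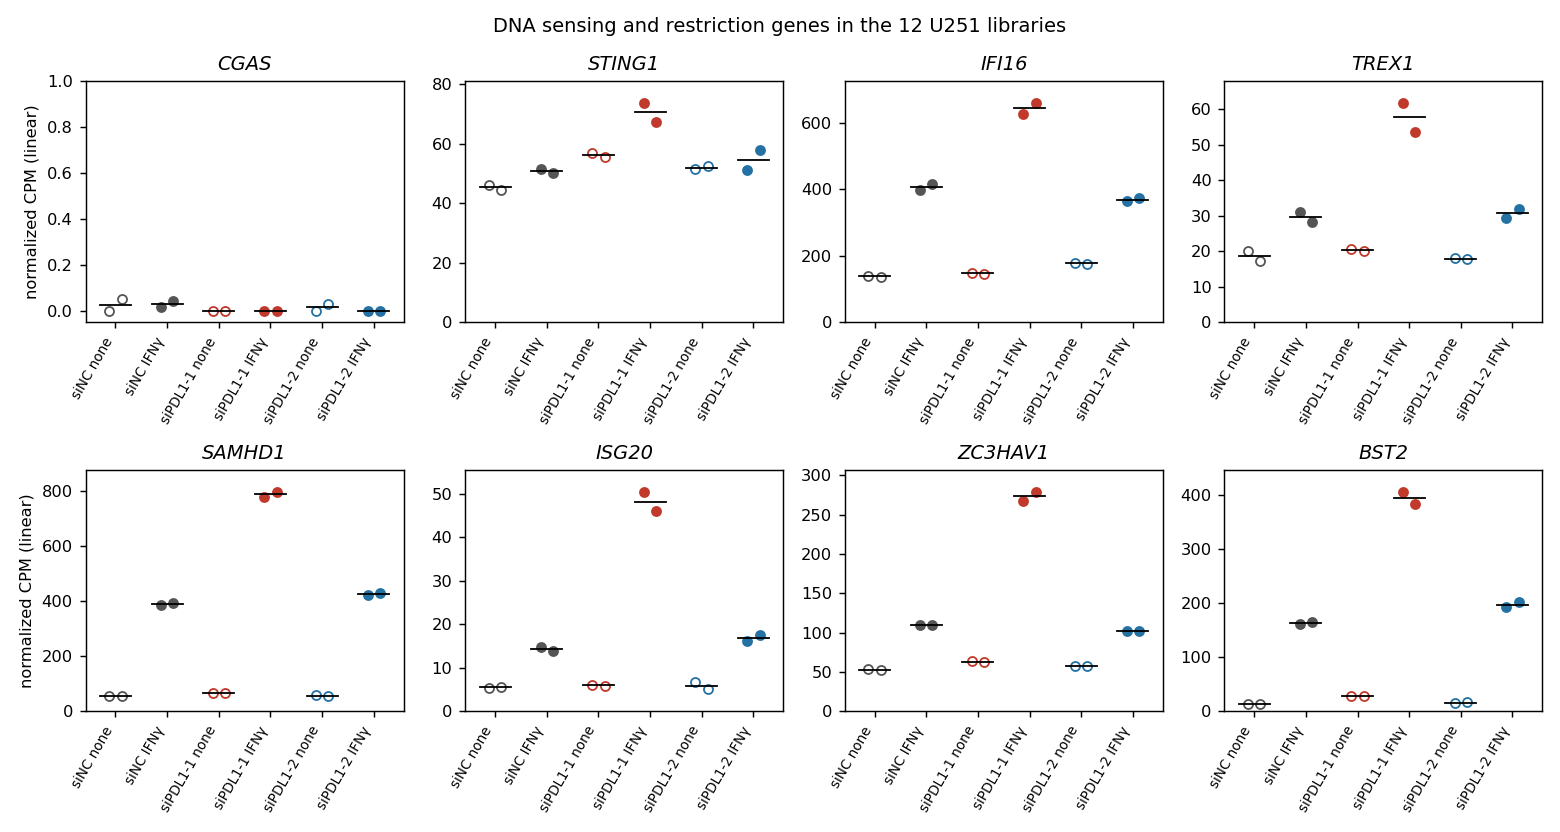
Normalized CPM (linear axes, from 0 except for a small margin in the *CGAS* panel) of the 8 genes in the 12 libraries. Each point is a library, open for unstimulated and filled for IFNγ, and the black line is the mean of 2. The IFNγ-treated siPDL1-1 libraries are the highest for each gene other than *CGAS*, which has at most 0.0506 CPM.

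*CGAS* (chr6:73413515-73452297 on GRCh38 in the deposited table, as are the positions of the other genes), the enzyme that detects cytosolic DNA, had 6 reads among the 417676108 on genes in all libraries. There were 2 reads in 1 unstimulated siNC library, 1 and 2 reads in the IFNγ-treated siNC libraries and 1 read in 1 unstimulated siPDL1-2 library. The remaining 8 libraries had 0 reads. No library exceeded the floor of 3 reads, so no fold change is given, and the rate over all libraries was 0.0144 CPM without further normalization, with an exact Poisson 95% interval of 0.00527 to 0.0313 that covers counting error only. In the 2 IFNγ-treated siPDL1-1 libraries combined, where the other genes were highest, there were 0 reads, for which the same kind of interval reaches 0.0634 CPM and the floor of 3 reads stands at 0.0515 CPM.

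*STING1* (chr5:139475533-139482935), the adaptor that acts after cGAS, was present in every library. In unstimulated cells it was at 46.3 and 44.4 CPM with siNC, 57.0 and 55.5 with siPDL1-1 and 51.4 and 52.7 with siPDL1-2. After IFNγ it was at 51.5 and 50.1 CPM with siNC, 73.7 and 67.5 with siPDL1-1 and 51.1 and 57.9 with siPDL1-2. The siPDL1-1 libraries did not overlap the siNC libraries in either state, and the siPDL1-2 libraries overlapped siNC only after IFNγ. IFNγ changed it by 0.16 on the log2 scale with siNC (95% interval 0.03 to 0.29, limma FDR = 0.0567), by 0.32 with siPDL1-1 (0.19 to 0.46, FDR = 9.8e-04) and by 0.06 with siPDL1-2 (-0.07 to 0.20, FDR = 0.495). The siPDL1-1 difference from siNC after IFNγ was 0.47 (0.30 to 0.64, limma FDR = 0.00131), which passed the FDR but not the fold change of 1.5. *STING1* was therefore called in none of the 11 comparisons.

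*IFI16* (chr1:158999968-159055155), a DNA-binding protein of the nucleus and cytoplasm, was at 139 and 138 CPM in unstimulated siNC cells and at 399 and 417 after IFNγ. With siPDL1-1 it went from 149 and 146 CPM to 626 and 659. With siPDL1-2 it went from 178 and 177 CPM to 363 and 373. The 3 siRNAs thus stood in a different order before and after IFNγ, with siPDL1-2 highest in unstimulated cells and lowest after stimulation, and no groups overlapped. The unstimulated excess with siPDL1-2 was 0.36 on the log2 scale (95% interval 0.27 to 0.44, limma FDR = 6.21e-06), under the fold change threshold. The response to IFNγ was a log2 fold change of 1.55 with siNC, 2.11 with siPDL1-1 and 1.05 with siPDL1-2. Relative to siNC, the response differed by 0.56 with siPDL1-1 (0.44 to 0.68, limma FDR = 1.37e-05) and by -0.51 with siPDL1-2 (-0.63 to -0.39, FDR = 4.33e-05). Both passed the FDR and fell short of the fold change of 1.5, and the first was called, at 0.60, when the counts were fitted by edgeR or DESeq2.

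*TREX1* (chr3:48465811-48467645), the exonuclease that clears cytosolic DNA, was at 20.2 and 17.3 CPM in unstimulated siNC cells and at 31.1 and 28.2 after IFNγ. With siPDL1-1 it went from 20.6 and 20.0 CPM to 61.8 and 53.7. With siPDL1-2 it went from 18.1 and 17.9 CPM to 29.5 and 32.0. The 2 IFNγ-treated siPDL1-1 libraries stood above all others, whereas the IFNγ-treated siPDL1-2 and siNC libraries overlapped. The response to IFNγ was 0.64 on the log2 scale with siNC (SE 0.08, limma FDR = 2.61e-05), 1.46 with siPDL1-1 and 0.74 with siPDL1-2. The siNC call did not hold without unstimulated siNC replicate 2 (0.53) or without IFNγ-treated siNC replicate 1 (0.57), both under the fold change threshold. *TREX1* lies within *ATRIP* on the same strand, and *ATRIP*, which averaged 17.0 CPM, was called in none of the 11 comparisons. Its response to IFNγ was -0.33 with siNC, 0.25 with siPDL1-1 and -0.01 with siPDL1-2. The siPDL1-1 response of *ATRIP* differed from that of siNC by 0.58 (limma FDR = 0.0277), the same direction as for *TREX1*. How reads in the shared stretch were divided was not tested.

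*SAMHD1* (chr20:36890229-36951843), the deoxynucleotide hydrolase, was at 56.5 and 56.7 CPM in unstimulated siNC cells and at 385 and 394 after IFNγ. With siPDL1-1 it went from 64.3 and 67.4 CPM to 778 and 796. With siPDL1-2 it went from 59.8 and 53.8 CPM to 421 and 430. The IFNγ-treated groups did not overlap each other, with siNC lowest, siPDL1-2 next and siPDL1-1 highest. The response was 2.76 on the log2 scale with siNC (SE 0.05, limma FDR = 7.97e-16), 3.56 with siPDL1-1 and 2.89 with siPDL1-2. IFNγ added 333 CPM with siNC, 722 with siPDL1-1 and 369 with siPDL1-2. *TLDC2*, which overlaps *SAMHD1* on the opposite strand and whose reads were not separated by strand, averaged 2.27 CPM and moved the same way, from 0.658 to 2.79 CPM with siNC and from 0.565 to 7.46 with siPDL1-1.

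*ISG20* (chr15:88636153-88656483), an exonuclease of single-stranded RNA and DNA named for its induction by interferon, had the fewest reads of the 7 genes tested. It was at 5.39 and 5.54 CPM in unstimulated siNC cells and at 14.9 and 13.9 after IFNγ. With siPDL1-1 it went from 6.06 and 5.77 CPM to 50.4 and 45.9. With siPDL1-2 it went from 6.76 and 5.01 CPM to 16.1 and 17.5. The unstimulated groups were close, with siPDL1-2 spanning the others, and the 2 IFNγ-treated siPDL1-1 libraries stood far above the rest. The ratio of mean CPM was 2.63 with siNC, 8.14 with siPDL1-1 and 2.86 with siPDL1-2. On the log2 scale of CPM + 1, which understates a change at this level, the response was 1.25 (SE 0.11, limma FDR = 2.77e-07), 2.83 and 1.38. Its counts ranged from 110 to 1777 reads per library.

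*ZC3HAV1* (chr7:139043515-139109720) encodes ZAP, which binds CpG-rich viral RNA and leads to its decay. It was at 53.0 and 51.8 CPM in unstimulated siNC cells and at 109 and 109 after IFNγ. With siPDL1-1 it went from 63.6 and 62.5 CPM to 268 and 279. With siPDL1-2 it went from 57.0 and 57.1 CPM to 102 and 102. The IFNγ-treated siPDL1-1 libraries were again apart, and those of siPDL1-2 lay just below siNC. The response was 1.05 on the log2 scale with siNC (SE 0.04, limma FDR = 3.25e-11), 2.10 with siPDL1-1 and 0.82 with siPDL1-2. The long and short forms of ZAP are counted together here.

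*BST2* (chr19:17402939-17405630) encodes tetherin, which holds budding virus particles at the cell surface. It had the largest response to IFNγ of the set under each siRNA, and it was the only one of the 7 tested genes called in unstimulated cells. In unstimulated cells it was at 13.9 and 13.4 CPM with siNC, 27.5 and 27.7 with siPDL1-1 and 14.8 and 16.2 with siPDL1-2. After IFNγ it was at 161 and 164 CPM with siNC, 406 and 383 with siPDL1-1 and 192 and 202 with siPDL1-2. No groups overlapped, and siPDL1-1 was highest in both states. The response to IFNγ was 3.48 on the log2 scale with siNC (SE 0.05, limma FDR = 1.8e-16), 3.79 with siPDL1-1 and 3.59 with siPDL1-2. *BISPR*, a noncoding gene that starts 56 bases away on the opposite strand, rose with IFNγ by 1.07 with siNC and 1.31 with siPDL1-1, and by 0.41 with siPDL1-2, where it was not called (limma FDR = 0.0105).

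In all, 6 of the 7 tested genes were called higher after IFNγ under each siRNA. The share of all 17982 genes called in either direction was 8.12% with siNC, 6.87% with siPDL1-1 and 5.27% with siPDL1-2, and the share called higher was 6.67%, 5.58% and 3.62%. The median log2 fold change of the 7 genes was 1.25, 2.11 and 1.05, against medians of all genes between -0.02 and 0.00. Among all genes ranked from the highest fold change with siNC, *BST2* was at rank 46, *SAMHD1* at 77, *IFI16* at 190, *ISG20* at 271, *ZC3HAV1* at 398, *TREX1* at 1056 and *STING1* at 5175.

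**Figure D3:**
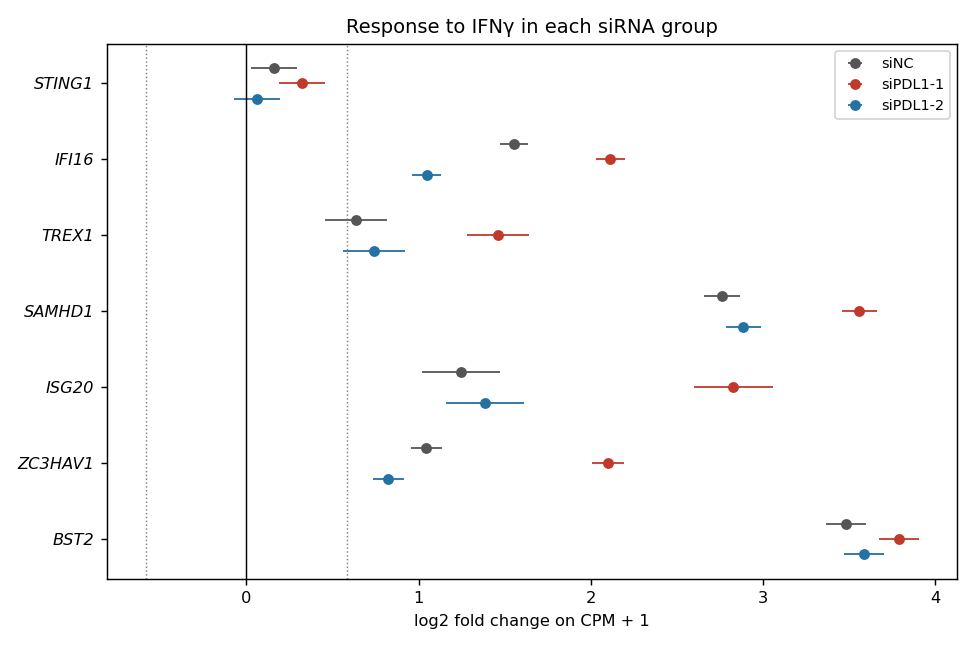
Log2 fold change (CPM + 1) of each tested gene after IFNγ in siNC (grey), siPDL1-1 (red) and siPDL1-2 (blue) cells, with 95% intervals from limma. Dotted lines mark a fold change of 1.5. *STING1* lies inside them, and the red point is the highest for each gene.

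In unstimulated cells, the siPDL1-1 effect was called for 1 of 7 genes, *BST2*, at a log2 fold change of 0.97 (95% interval 0.85 to 1.08, limma FDR = 1.17e-08). Of all genes, 4% were called in that comparison and 2.55% were called higher. *STING1* (0.30), *ZC3HAV1* (0.26) and *SAMHD1* (0.22) passed the FDR there with changes under 1.5-fold. With siPDL1-2, 0 of 7 were called by limma, where 6.17% of all genes were, and 4 of 7 had an unadjusted p under 0.05, as did 48.2% of all genes. The 7 log2 fold changes lay between -0.05 (*TREX1*) and 0.36 (*IFI16*), and edgeR and DESeq2 also called 0. Between the siRNAs, *BST2* was the 1 gene called, higher with siPDL1-1 by 0.80 (0.68 to 0.91, limma FDR = 1.57e-07), against 4.35% of all genes called and 0.884% called higher.

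After IFNγ, 6 of 7 genes were called higher with siPDL1-1 than with siNC, where 5.52% of the 17148 genes tested were called in either direction and 3.76% were called higher. The log2 fold changes were 1.68 for *ISG20* (95% interval 1.49 to 1.87), 1.32 for *ZC3HAV1* (1.19 to 1.44), 1.27 for *BST2* (1.15 to 1.40), 1.01 for *SAMHD1* (0.90 to 1.12), 0.94 for *TREX1* (0.74 to 1.13) and 0.65 for *IFI16* (0.54 to 0.77). Their limma FDR values ran from 6.12e-08 to 2.9e-05. With siPDL1-2, 0 of 7 were called by limma, edgeR or DESeq2, where limma called 2.91% of all genes, and 4 of 7 had an unadjusted limma p under 0.05, as did 35.8% of all genes. The largest of these 7 differences was 0.27 for *BST2* (0.15 to 0.40, limma FDR = 0.00705), which passed the FDR alone, and the lowest was -0.15 for *IFI16* (-0.27 to -0.03, FDR = 0.0699). Both comparisons use the same 2 siNC libraries.

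The siRNAs were also compared directly. After IFNγ, the same 6 genes were called higher with siPDL1-1 than with siPDL1-2, in a comparison where 2.11% of all genes were called and 1.73% were called higher. The differences were 1.46 for *ISG20*, 1.42 for *ZC3HAV1*, 1.00 for *BST2*, 0.89 for *SAMHD1*, 0.89 for *TREX1* and 0.80 for *IFI16*, with limma FDR values from 3.43e-08 to 9.05e-05. *STING1* differed by 0.37 (95% interval 0.20 to 0.54) and was not called. After IFNγ, *CD274* was itself higher with siPDL1-1 than with siPDL1-2 by 0.80 (limma FDR = 5.03e-05). *CD274* also rose with IFNγ, by 3.70 with siNC, 4.13 with siPDL1-1 and 3.05 with siPDL1-2. Its level after IFNγ therefore does not measure knockdown alone, and how it relates to these 6 genes was not tested. In unstimulated cells *CD274* was the lower of the 2 with siPDL1-1 (-0.29, limma FDR = 0.00865), a difference under 1.5-fold.

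**Figure D4:**
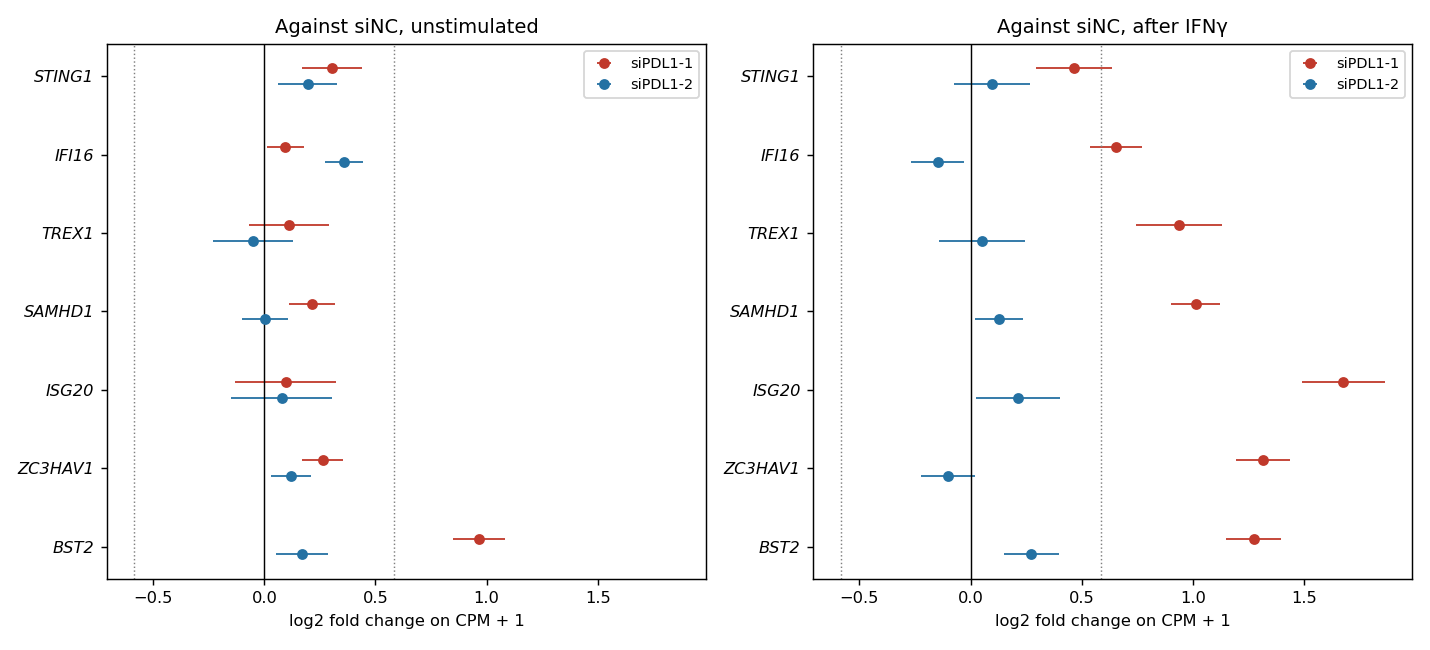
Log2 fold change (CPM + 1) of each tested gene against siNC in unstimulated (left) and IFNγ-treated cells (right) for siPDL1-1 (red) and siPDL1-2 (blue), with 95% intervals from limma. Dotted lines mark a fold change of 1.5, and red points pass it for *BST2* alone on the left and for 6 genes on the right.

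Whether the siPDL1-1 effect depended on IFNγ was tested as a difference of differences over all 12 libraries. By limma, 4 of 7 genes were called, all higher, where 0.968% of all genes were called and 0.89% were called higher. They were *ISG20* (1.58, FDR = 7.93e-06), *ZC3HAV1* (1.05, FDR = 2.37e-08), *TREX1* (0.82, FDR = 6.68e-04) and *SAMHD1* (0.80, FDR = 2.41e-06). For *BST2*, which was already higher in unstimulated siPDL1-1 cells, the value was 0.31 (95% interval 0.15 to 0.47, limma FDR = 0.0393). For siPDL1-2, 0 of 7 were called by limma, edgeR or DESeq2, against 7.62% of all genes by limma, and 2 of 7 had an unadjusted limma p under 0.05, as did 39.6% of all genes. The values ran from -0.51 (*IFI16*) to 0.14 (*ISG20*). *ZC3HAV1* was at -0.22 there (-0.35 to -0.09, limma FDR = 0.0125).

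Compared per kilobase of the Ensembl canonical transcript, *IFI16* had the highest level of the 8 genes in unstimulated siNC cells, at 48.0 CPM per kb. *STING1* (20.9), *TREX1* (17.1), *BST2* (13.6), *SAMHD1* (12.2), *ZC3HAV1* (7.30), *ISG20* (3.45) and *CGAS* (0.00791) followed, with no overlap between neighbours. In IFNγ-treated siPDL1-1 cells the order was *BST2* (394), *IFI16* (223), *SAMHD1* (169), *TREX1* (52.7), *ZC3HAV1* (38.1), *STING1* (32.5) and *ISG20* (30.4), and the libraries of the last pair overlapped. *BST2* thus moved from the fourth place to the first. With all exons of a gene as its length, *STING1* fell to the fourth place in unstimulated siNC cells, so the order of genes at close levels depends on which transcripts are present.

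Related genes were counted by list. Of 35 other restriction factors, 25 were called higher after IFNγ with siNC, 29 with siPDL1-1 and 24 with siPDL1-2. The share of all genes called higher was 6.67%, 5.58% and 3.62%. In unstimulated siNC cells, *RSAD2*, *OAS2* and *MX2* of this list averaged 0, 0.112 and 0.164 CPM. They passed the filter through IFNγ-treated or siPDL1-1 libraries, so against unstimulated siNC cells they could be called only higher. Such genes were not counted apart, in the list or among all genes. The list counts against unstimulated cells therefore do not test whether the list exceeds these shares. After IFNγ, 24 of the 35 were called higher with siPDL1-1 than with siNC, where 3.76% of all genes were. The median log2 fold change was 1.31 against -0.01 over all genes. The largest were *MX2* (4.79), which blocks nuclear import of HIV, the 2-5A synthetases *OAS2* (4.34) and *OAS1* (4.30), and *RSAD2* (4.10), which makes a chain-terminating nucleotide. With siPDL1-2, *IFI6* (0.76) and *HERC6* (0.66) were called higher and *GBP5* (-0.61) lower, where 2.91% of all genes were called in either direction. In unstimulated cells, 5 of the 35 were called higher with siPDL1-1, led by *OAS1* (1.54) and *OASL* (1.32), and 1 with siPDL1-2, *SLFN5* (1.03). Of all genes, 2.55% were called higher with siPDL1-1, and 6.17% were called in either direction with siPDL1-2.

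Of 22 other DNA sensors and signalling genes, 19 could be tested after IFNγ. The list median with siPDL1-1 against siNC was -0.14, and 2 were called higher, where 3.76% of all genes were. They were *ZBP1* (2.04), a sensor of Z-form nucleic acid, and *IKBKE* (0.82), a kinase related to TBK1. With siPDL1-2, 0 were called by limma, edgeR or DESeq2, where limma called 2.91% of all genes. An unadjusted limma p under 0.05 was found for 9, as for 35.8% of all genes. *TBK1*, the kinase that STING recruits, was at 29.9 CPM on average in unstimulated siNC cells and 51.0 after IFNγ, a called log2 fold change of 0.75. Its response was also 0.75 with siPDL1-1, and that with siPDL1-2 differed from siNC by -0.62, a called difference. *AIM2*, a relative of *IFI16*, had 190 reads in all and reached only 1.13 CPM in its highest library. It averaged 0.0371 CPM with siNC, 0.038 with siPDL1-1 and 0.0665 with siPDL1-2 in unstimulated cells, and 0.909, 0.976 and 0.745 after IFNγ. It passed the filter through the IFNγ-treated libraries, so no fold change is given. The IFI16 relatives *MNDA* and *PYHIN1* had 0 reads in all libraries.

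Of 35 regulators of cGAS and STING, 34 could be tested. After IFNγ, 3 were called higher with siPDL1-1 than with siNC and 1 lower, with a median of 0.06, where 5.52% of all genes were called. With siPDL1-2, 0 were called by limma, edgeR or DESeq2, where limma called 2.91% of all genes. An unadjusted limma p under 0.05 was found for 12 of the 34, as for 35.8% of all genes. The 3 were *USP18* (2.49), an isopeptidase that removes ISG15 and restrains interferon signalling, *IFI35* (0.89) and *TRIM38* (0.60), a ubiquitin and SUMO ligase. *INSIG1* (-0.88), a sterol-regulated membrane protein, was the 1 that fell, and it also fell in unstimulated cells, to 76.0 CPM on average with siPDL1-1 from 153 with siNC. Of 34 other nucleases, 32 were tested. With siPDL1-1 after IFNγ, 2 were called higher, the mitochondrial ribonuclease *PNPT1* (1.35) and *N4BP1* (1.35), and 0 lower. These counts are near the shares of all genes, 5.52% called in either direction and 3.76% called higher. With siPDL1-2, *ENDOG* (0.69) was called higher and *RNASEH1* (-0.59) lower. *XRN1*, the cytoplasmic exoribonuclease, rose with IFNγ under all 3 siRNAs (1.59, 1.91 and 0.93).

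Of 21 genes of deoxynucleotide metabolism and of the kinases that phosphorylate SAMHD1, 20 were tested. After IFNγ, 2 were called higher with siPDL1-1 and 3 lower, with a median of -0.08. Of all genes, 5.52% were called in that comparison and 3.76% were called higher. *CMPK2*, a mitochondrial nucleotide kinase next to *RSAD2* in the genome, was higher by 3.48 and *TK2* by 0.92. *CCNA2* (-1.16) and *CDK1* (-0.97), a cyclin and a kinase of the cell cycle, were lower. With siPDL1-2, where 2.91% of all genes were called, *CDK1* was also lower (-0.76) and *TK2* higher (0.77).

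**Figure D5:**
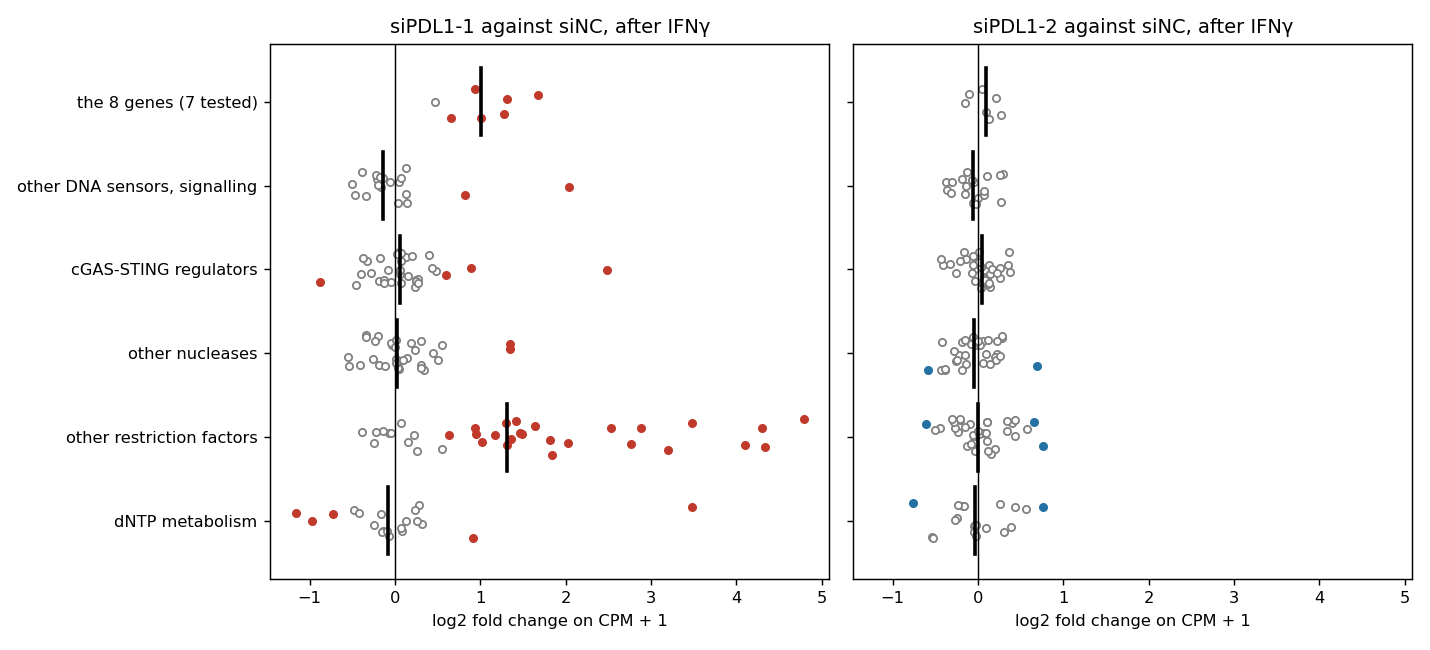
Log2 fold change (CPM + 1) against siNC after IFNγ for the tested genes and 5 related lists, with siPDL1-1 on the left and siPDL1-2 on the right. Filled points are called, open points are not, and the black line is the list median. The 7 tested genes and the other restriction factors have medians of 1.01 and 1.31 with siPDL1-1 and of 0.10 and 0.00 with siPDL1-2.

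Of 8 type I and III interferon genes, 3 passed the filter, and did so through the IFNγ-treated siPDL1-1 libraries, so no fold change is given. Their mean levels there were 1.68 CPM for *IFNL1*, 0.867 for *IFNB1* and 0.727 for *IFNL2*, and in the other groups at most 0.0104, 0.0395 and 0 CPM, from 96, 51 and 42 reads in all. The summed level of the 8 was 3.43 and 3.81 CPM in the IFNγ-treated siPDL1-1 libraries and at most 0.311 in the other 10. The part of these interferons in the values of *ISG20*, *ZC3HAV1*, *TREX1* and *SAMHD1* was not tested.

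Genes of like pattern were named by Pearson correlation over the 12 libraries among 1034 candidates that averaged 5 CPM or more and whose group means spanned 1 or more on the log2 scale. These values describe libraries that share their groups, and carry no test. The closest to *SAMHD1* was *XAF1* (r = 0.999), to *BST2* *IFITM3* (0.998), to *ZC3HAV1* *DDX58* (0.997), to *IFI16* *TRIM38* (0.996), to *ISG20* *DHX58* (0.994) and to *TREX1* *OAS3* (0.993). *ISG20* was itself the third closest to *TREX1* (0.988). *STING1* had lower values throughout, with *CD82* (0.951) as the closest.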

How the data were processed

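RNA-seq was analysed in 12 libraries of U251 cells, 2 per group, prepared from 2 independent experiments per the methods. Groups were taken from the labels. Quality trimming, alignment to the GRCh38 genome of Ensembl, counting without regard to strand and normalization were done by the authors in CLC Genomics Workbench. The deposited signal values are these normalized CPM, and 100% were whole multiples of 1 read, so reads were recovered from them. No column was left unused.

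Genes were kept by filterByExpr of edgeR 4.0.16 (minimum count 10, minimum total 15). log2(CPM + 1) was fitted with limma 3.58.1 (R 4.3.3, trend and robust), with Benjamini-Hochberg adjustment across every gene in the fit, and a call needed an FDR under 0.01 with over 1.5-fold change. The 6 IFNγ-treated libraries were fitted for siRNA comparisons after IFNγ, and all 12 otherwise. P-values measure only the spread between these libraries. In simulated data with 200 genes changed by 1.5 on the log2 scale, 199 were recovered for IFNγ in siPDL1-1 cells and 200 for siPDL1-1 against siNC after IFNγ, with 1 false call each. Smaller changes were not simulated. The simulated spread between replicates was fixed and not estimated from these data, and only genes with ample reads were changed. These counts therefore check the procedure and do not give the error rate of these libraries. Alternatives were a pseudocount of 0.1, no filter, DESeq2 size factors, edgeR's quasi-likelihood test, the Wald test of DESeq2 1.42.0, a replicate block, other libraries in the fit, other thresholds and leaving out each library. Promoters are from RefSeq and transcript lengths from GENCODE.

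The genes described and the lists were chosen with earlier results of these data known. The rule for names took the 8 genes, up to 4 called genes of each list with the largest change in a comparison, the 3 genes most like each by correlation, of which mostly the closest is printed, and *CD274*. Neighbouring genes, *MNDA*, *PYHIN1* and *MX1* were named after their values were seen.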

Additional observations from a re-analysis of the deposited data

Results flagged for a closer look

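For 4 genes the siPDL1-1 effect differed between unstimulated and IFNγ-treated cells, by limma's test of the difference of differences over 12 libraries. On the log2 scale the difference was 1.58 for *ISG20* (FDR = 7.93e-06), 1.05 for *ZC3HAV1* (FDR = 2.37e-08), 0.82 for *TREX1* (FDR = 6.68e-04) and 0.80 for *SAMHD1* (FDR = 2.41e-06). In each case both IFNγ-treated siPDL1-1 libraries were above all other libraries. As the ratio of mean CPM to that of siNC, *ISG20* was at 1.08 in unstimulated cells and 3.35 after IFNγ, *ZC3HAV1* at 1.20 and 2.50, *TREX1* at 1.08 and 1.95, and *SAMHD1* at 1.16 and 2.02.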

How the results depend on the processing

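No called value changed direction under any alternative. With an FDR under 0.01 and no fold change threshold, the number of the 7 tested genes called rose to 4 for siPDL1-1 against siNC, 1 for siPDL1-2 against siNC and 3 between the siRNAs in unstimulated cells, to 1 for siPDL1-2 against siNC after IFNγ, and to 1 for the dependence of the siPDL1-2 effect on IFNγ. The other counts stayed within 1.5 times. The share of all genes that pass the FDR alone was not counted. The counts without a fold change threshold therefore show only how the calls depend on that threshold. For single genes, 360 of 364 values without 1 replicate and 679 of 693 values under the other alternatives stayed on their side of the threshold. Among these, 11 and 4 values that were not called changed sign. *TREX1* after IFNγ with siNC lost its call without unstimulated siNC replicate 2 (0.53) and without IFNγ-treated siNC replicate 1 (0.57). The *IFI16* difference of responses with siPDL1-1 (0.56) was called with DESeq2 size factors, with edgeR's quasi-likelihood test and with DESeq2's Wald test (0.60 each), and without IFNγ-treated siNC replicate 2 (0.59) or siPDL1-1 replicate 1 (0.60), and the cause was not tested. Deviations of replicate 1 from its group mean correlated above 0.1 in 4 of 15 pairs of groups, with a range of -0.299 to 0.363. Replicate numbers thus did not mark a pairing common to all groups. The labels do not tie these numbers to the independent experiments, so a block on them cannot decide whether an experiment effect is present. With the replicate block, 6 of 7 genes were called for IFNγ under each siRNA, 6 for siPDL1-1 after IFNγ and 4 for its dependence on IFNγ. *CGAS* had at most 2 reads in a library, so its groups were not compared. Its level over all libraries was nonetheless bounded, with 0.0313 CPM as the upper end of the exact Poisson 95% interval, which covers counting error only.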

Other observations

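Besides *TLDC2* and *BISPR*, other neighbours of the genes moved with IFNγ. *SHISA5*, 153 bases from *TREX1* on the opposite strand, rose by 0.79 with siPDL1-1 (limma FDR = 8.41e-09), and was at 0.38 with siNC and 0.56 with siPDL1-2, under the fold change threshold. *CCDC194*, 8781 bases from *BST2* on the same strand, was at 0.05 CPM on average in unstimulated siNC cells, 0.831 after IFNγ and 6.25 in IFNγ-treated siPDL1-1 cells. It averaged 0.158 CPM in unstimulated siPDL1-1 cells and 0.051 in unstimulated siPDL1-2 cells. It thus passed the filter through the IFNγ-treated libraries, so no fold change is given. *HAPLN3*, the nearest gene to the right of *ISG20* at 1 CPM or more, 220811 bases away, rose by 2.38 with siNC, 2.25 with siPDL1-1 and 2.48 with siPDL1-2, and unlike *ISG20* its siPDL1-1 effect was not called to depend on IFNγ (-0.14, limma FDR = 0.733).

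*MX1*, the dynamin-like restriction factor, was low in every group, between 3.02 and 5.43 CPM in the 12 libraries, while its relative *MX2* averaged 0.164 CPM in unstimulated siNC cells and 141 in IFNγ-treated siPDL1-1 cells.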
